A study of Mus musculus with 15 samples.

Results

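The genes described here are Pip, Tprg, Gdpd2, Cbr2, Abcc3 and Scara5, 6 of the 23462 named genes on the arrays, chosen by name because they showed large falls with TNFα or TGFβ1 in these same data, with no numeric threshold. The falls with these 2 cytokines are therefore a description and carry no test. The 6 genes had 9 probes among 56605, and 8 of the 9 were tested. Gene expression was measured on 15 one-color arrays of the fibroblast line 3T3 (Balb/c/3T3 clone A31, a single clone of mouse embryonic fibroblasts, called MEFs), in 5 groups of 3. The groups were MEFs alone and MEFs incubated with 10 ng/ml of TNFα, 5 ng/ml of TGFβ1 or 1 ng/ml of IL-1β. The fifth group received IL-6 at 20 ng/ml together with its soluble receptor sIL-6Rα at 25 ng/ml, and is called IL-6 here. The labels give 24 or 72 hours of culture, and the paper's results give 24 h for the TNFα and TGFβ1 arrays. The time for IL-1β and IL-6 is not given in the sources used here. The labels give no genetic difference between groups.

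TNFα acts through receptors that switch on NF-κB and stress kinases, and TGFβ1 through receptor kinases that phosphorylate SMAD proteins and drive fibroblasts to make matrix. IL-1β also activates NF-κB, while IL-6 bound to its soluble receptor signals through gp130 and STAT proteins. The genes measured here have unrelated products: a secreted protein, a gene named for its control by p63, a lipid phosphodiesterase, a carbonyl reductase, an export pump and a ferritin receptor.

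RefSeq promoters were found for 4 of the 6 genes, as 5 stretches of 300 bases, from 250 bases before to 50 after a start of transcription (build GRCm38.p6). They are shown because the genes were chosen for falls with TNFα or TGFβ1. Capitals mark TATAAA (the TATA box letters), CCAAT (the letters of the box of that name), GGGCGG (the GC box letters), TGANTCA (the AP-1 letters), the NF-κB motif, CAGAC (the SMAD letters), TTCNNNGAA (the STAT letters) and TTGCNNAA (the C/EBP letters), read on both strands, where N is any base. The promoters lay at chr6:41847299-41847598 (Pip, plus strand), chr16:25286567-25286866 (Tprg, plus strand), chrX:100729597-100729896 and chrX:100729936-100730235 (Gdpd2, plus strand, starts 1 and 2) and chr11:120731972-120732271 (Cbr2, minus strand).
Pip: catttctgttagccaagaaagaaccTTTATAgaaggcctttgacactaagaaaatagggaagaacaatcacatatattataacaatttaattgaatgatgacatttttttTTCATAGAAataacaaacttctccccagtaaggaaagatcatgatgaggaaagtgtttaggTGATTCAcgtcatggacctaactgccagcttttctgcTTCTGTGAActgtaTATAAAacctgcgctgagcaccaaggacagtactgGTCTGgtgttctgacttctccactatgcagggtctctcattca
Tprg: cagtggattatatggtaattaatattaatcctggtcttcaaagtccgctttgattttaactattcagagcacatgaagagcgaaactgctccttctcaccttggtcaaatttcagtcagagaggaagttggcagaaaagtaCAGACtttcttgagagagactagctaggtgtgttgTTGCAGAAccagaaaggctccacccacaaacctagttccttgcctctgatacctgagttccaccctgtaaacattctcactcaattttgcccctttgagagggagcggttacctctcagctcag
Gdpd2, start 1: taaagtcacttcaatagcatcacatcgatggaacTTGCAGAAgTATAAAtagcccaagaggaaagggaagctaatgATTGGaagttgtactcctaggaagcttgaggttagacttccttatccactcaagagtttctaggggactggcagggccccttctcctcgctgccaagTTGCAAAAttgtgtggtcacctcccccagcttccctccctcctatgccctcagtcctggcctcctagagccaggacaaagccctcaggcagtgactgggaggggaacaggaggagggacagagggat
Gdpd2, start 2: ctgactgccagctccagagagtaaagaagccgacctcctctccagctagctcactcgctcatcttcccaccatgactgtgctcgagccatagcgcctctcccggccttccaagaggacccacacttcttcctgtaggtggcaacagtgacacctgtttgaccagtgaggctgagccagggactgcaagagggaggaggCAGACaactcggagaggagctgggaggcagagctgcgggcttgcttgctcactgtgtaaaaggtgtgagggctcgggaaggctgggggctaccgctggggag
Cbr2: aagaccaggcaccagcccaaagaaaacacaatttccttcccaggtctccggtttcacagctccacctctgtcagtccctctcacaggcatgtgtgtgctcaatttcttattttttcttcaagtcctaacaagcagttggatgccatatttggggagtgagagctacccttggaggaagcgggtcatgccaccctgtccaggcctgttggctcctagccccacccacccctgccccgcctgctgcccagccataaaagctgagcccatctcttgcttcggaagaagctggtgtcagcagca

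The Pip promoter held TATAAA at position -28 from the start and, on the other strand, at -225, the AP-1 letters at -79, the STAT letters at -140 and -42, and CAGAC on the other strand at 8. The Tprg promoter held CAGAC at -109 and the C/EBP letters at -74. The first Gdpd2 promoter held TATAAA at -207, CCAAT on the other strand at -174 and the C/EBP letters at -216 and -77, while the second held CAGAC at -52. None of these letters was in the Cbr2 window, and the NF-κB motif and GGGCGG were in none of the 5 windows. Other forms of the NF-κB motif were not searched. Of all 32851 promoters in the table, TATAAA was in 13.6%, CCAAT in 37.4%, GGGCGG in 35.7%, the AP-1 letters in 7.81%, the NF-κB motif in 1.63%, CAGAC in 49.6%, the STAT letters in 8.30% and the C/EBP letters in 10.8%. A match describes these letters and is not a binding site.

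Levels are given as log2 of the processed signal minus the 75th percentile of the array, so 0 is the level of that percentile, and a spot counts as detected where the scanner software marked it well above background. Levels of different probes are not compared. Arrays are called by the number that opens their label. Between 48.3 and 54.9% of probes were detected on each array, and no spot was saturated. The 10 fibroblast markers were detected on every array, and none of the 8 epithelial markers was detected on all control arrays. With TGFβ1, 2 of the 8 (Krt8 and Krt18) were detected on all arrays, and the summed level of the list was 0.292 to 0.734 against 0.185 to 0.280 in controls. Of 8 leukocyte markers 4 (Cd68, Csf1r, Itgam and Cd3e) were detected on all arrays of every group, while the pan-leukocyte marker Ptprc was detected on none, and of 6 endothelial markers 1 (Pecam1) was. Adipocyte markers were also lower with TNFα and TGFβ1. Of 6 markers 5 were tested, and 5 were called lower with TNFα, against 5.96% of all probes. With TGFβ1 3 were called lower, against 10.4%. The summed level of the 6 (linear, relative to the 75th percentile) was 23.4 to 30.4 in controls, 6.47 to 8.85 with TNFα, 10.65 to 15.4 with TGFβ1, 23.5 to 25.6 with IL-1β and 26.3 to 27.5 with IL-6, and 5 of 6 were detected on all control arrays. The part of these markers in the results was not tested. In cell cultures measured in bulk, fewer cells that make a transcript and less transcript per cell cannot be told apart.

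All 6 genes were lower on every TNFα array than on every control array, and all 6 were lower on every TGFβ1 array as well. Groups separated in this way in 15.8% of all tested probes with TNFα and in 18.9% with TGFβ1, but nothing is read from this since the genes were chosen on these contrasts. Both contrasts share the control arrays.

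**Figure D1:**
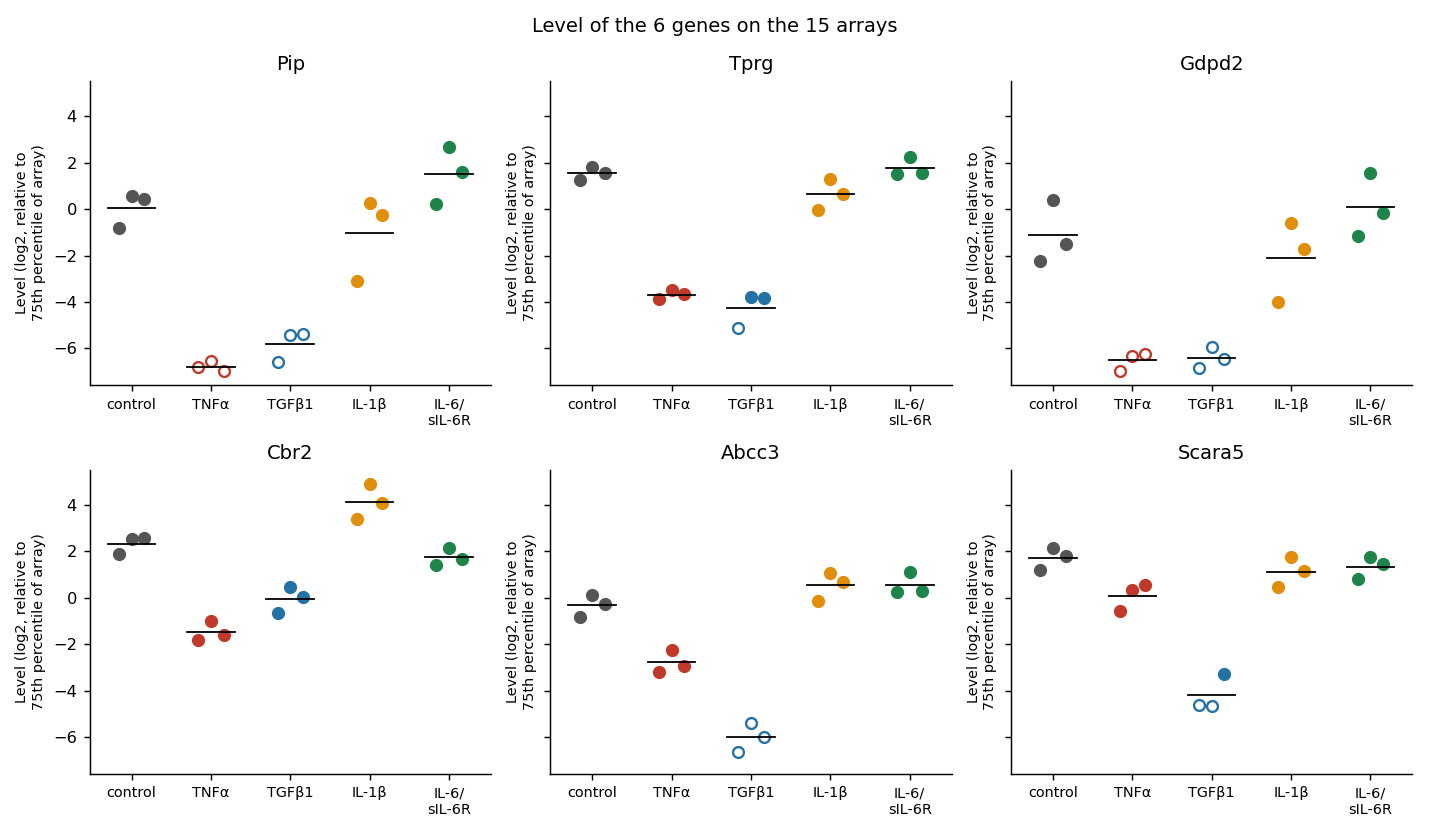
Level of each gene (log2, relative to the 75th percentile of the array) on the 15 arrays, by group. Each circle is an array in the order of its label number, filled where the probe was well above background and open where it was not, and the line is the mean of 3. For all 6 genes the TNFα and TGFβ1 arrays lie below every control array, and the open circles are all in these 2 groups.

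Pip encodes prolactin-induced protein, a small glycoprotein secreted by exocrine glands. Its level was -0.81, 0.55 and 0.42 in controls 1, 6 and 11. It was -6.82, -6.55 and -6.99 on the TNFα arrays (4, 9 and 14) and -6.61, -5.42 and -5.37 on the TGFβ1 arrays (2, 7 and 12). None of these 6 arrays detected Pip, against 3 of 3 controls. Where no array of a group detected a probe, the fall is a bound that holds for the processed signal only. It was set on each array at the lowest signal among detected probes or the probe's own signal, whichever was higher. Pip was at least 27.9-fold lower with TNFα and at least 27.6-fold lower with TGFβ1, with measured mean differences of -6.84 and -5.85 (log2).

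With IL-1β (arrays 5, 10 and 15) Pip was -3.09, 0.27 and -0.27, and with IL-6 (arrays 3, 8 and 13) it was 0.23, 2.67 and 1.62. Every one of these arrays detected Pip, and both groups overlapped the controls. The means fell in the order IL-6, control and IL-1β, each overlapping the next, and every IL-1β array was above the TGFβ1 and TNFα arrays, which have no order among themselves as none detected Pip.

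Tprg is named as a gene regulated by the transcription factor p63. Its level was 1.27, 1.81 and 1.54 in controls, -3.87, -3.51 and -3.67 with TNFα, and -5.11, -3.80 and -3.82 with TGFβ1. All TNFα arrays and 2 of 3 TGFβ1 arrays detected it. The measured differences from control were -5.22 with TNFα and -5.78 with TGFβ1 (log2), the second including the TGFβ1 array that did not detect it, and the arrays of these 2 cytokines overlapped. With IL-1β the level was -0.02, 1.28 and 0.64, and with IL-6 it was 1.49, 2.23 and 1.57. All IL-1β arrays were below all IL-6 arrays, while both groups overlapped the controls.

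Gdpd2 encodes a membrane enzyme of the glycerophosphodiester phosphodiesterase family, which cleaves deacylated phospholipids. It was the most variable of the 6 genes in controls, at -2.25, 0.40 and -1.49 (SD 1.37). It was -6.97, -6.32 and -6.23 with TNFα and -6.87, -5.95 and -6.44 with TGFβ1. None of these 6 arrays detected it, so Gdpd2 was at least 12.4-fold lower with TNFα and at least 12.3-fold lower with TGFβ1. The measured differences were -5.39 and -5.31 (log2). With IL-1β it was -4.01, -0.58 and -1.73 and with IL-6 -1.16, 1.57 and -0.15, detected on all 6 arrays and overlapping the controls.

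Cbr2, a carbonyl reductase that reduces ketones and aldehydes, was detected on all 15 arrays. Its level was 1.88, 2.53 and 2.59 in controls, -1.83, -0.98 and -1.62 with TNFα, and -0.64, 0.47 and 0.04 with TGFβ1. The TNFα arrays lay below the TGFβ1 arrays, with differences from control of -3.81 and -2.37 (log2), or 14.0-fold and 5.18-fold lower. With IL-1β Cbr2 was 3.39, 4.92 and 4.07, above every control, and with IL-6 it was 1.40, 2.14 and 1.67, overlapping the controls. A second probe had the same order of group means, with differences of -3.04 with TNFα and -2.28 with TGFβ1. Its TNFα arrays (-4.55 to -3.23) overlapped its TGFβ1 arrays (-3.41 to -2.54).

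Abcc3 encodes an efflux pump for organic anions and glucuronide conjugates. It was -0.82, 0.12 and -0.29 in controls, -3.18, -2.24 and -2.93 with TNFα, and -6.64, -5.39 and -5.98 with TGFβ1. All TNFα arrays detected it and no TGFβ1 array did. The difference with TNFα was -2.45 (log2), or 5.48-fold lower, and with TGFβ1 Abcc3 was at least 21.2-fold lower (measured difference -5.68). With IL-1β it was -0.15, 1.08 and 0.69, and with IL-6 it was 0.24, 1.12 and 0.30. The IL-1β arrays overlapped the controls, and every IL-6 array was above every control. Its other probe was not detected on any of the 15 arrays.

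Scara5 encodes a class A scavenger receptor that takes up ferritin. Its level was 1.19, 2.15 and 1.81 in controls, -0.57, 0.32 and 0.53 with TNFα, and -4.64, -4.65 and -3.28 with TGFβ1. Only 1 of 3 TGFβ1 arrays detected it, and the measured difference, with the arrays that did not detect it included, was -5.91 (log2) against -1.62 with TNFα. The TNFα and TGFβ1 arrays did not overlap. With IL-1β Scara5 was 0.44, 1.74 and 1.18, and with IL-6 it was 0.81, 1.77 and 1.45, both overlapping the controls. A second probe, detected on no TGFβ1 array, was at least 16.1-fold lower with TGFβ1 and differed by -1.96 (log2) with TNFα.

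The 6 genes thus differed in which cytokine came with the lower level. Pip, Tprg and Gdpd2 had overlapping TNFα and TGFβ1 arrays, and Abcc3 and Scara5 were lower with TGFβ1. Cbr2 was lower with TNFα by its brighter probe, while the arrays of its second probe overlapped. This is a description, since these arrays chose the genes and TNFα was not tested against TGFβ1. The falls of the dim probes depend on the background correction: with normexp the difference of Pip was -2.82 with TNFα and -2.64 with TGFβ1, that of Gdpd2 -1.92 and -1.84, and that of Abcc3 -1.61 and -2.38. That of Tprg was -3.59 and -3.73, and that of Scara5 was -3.92 with TGFβ1. The normexp falls of Pip and Gdpd2, and of Abcc3 with TGFβ1, are smaller than the bounds given above. Those bounds therefore do not hold under that setting. The offset by itself makes falls to low signals smaller: the mean processed signal of Pip was 3.48 with TNFα and 440 in controls. Its part was not separated from that of the background correction.

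**Figure D2:**
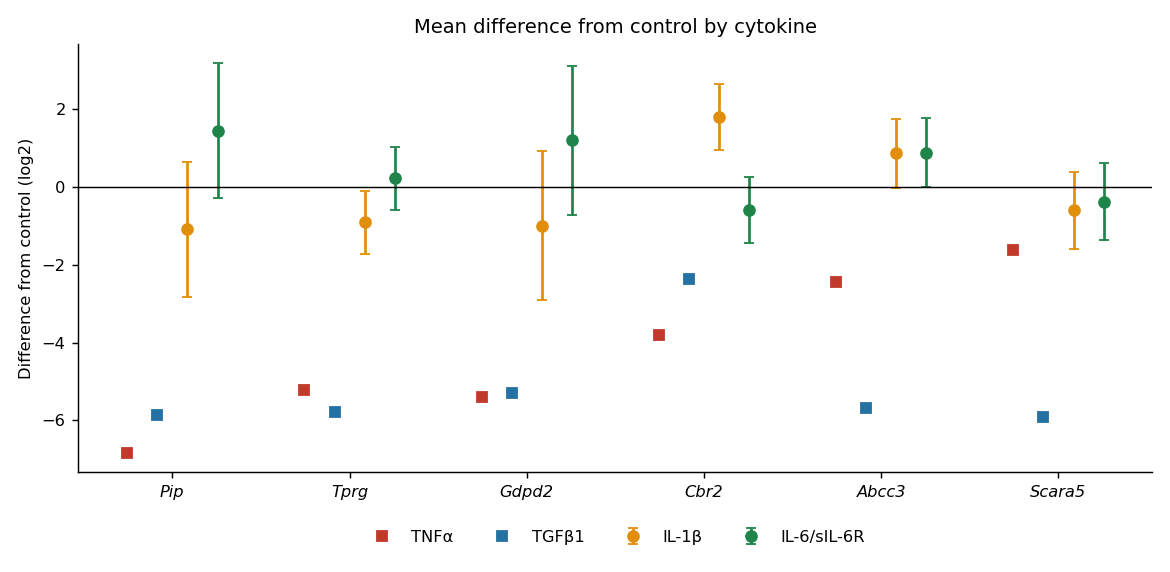
Mean difference from control (log2) of each gene for the 4 cytokines, 3 arrays against 3. Squares are TNFα and TGFβ1, which chose the genes and have no interval, and circles are IL-1β and IL-6 with the 95% confidence interval of the fit over 15 arrays. Cbr2 was 1.80 higher with IL-1β while the TNFα and TGFβ1 squares are at -3.81 and -2.37.

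The IL-1β and IL-6 arrays were not used to choose the genes, although the control arrays were, and they were tested with limma over 29334 probes. A probe was called where the Benjamini-Hochberg q was under 0.05 and the fold-change at least 1.5. With IL-1β, 0 of the 6 genes were called lower, against 0.00341% of all probes, and 0 were called higher, against 0.228%. At an unadjusted p under 0.05, 1 gene was lower (Tprg) and 1 higher (Cbr2), of 1060 probes in all. Cbr2 differed from control by 1.80 (log2, 95% interval 0.94 to 2.65, q = 0.141), or 3.47-fold, and was higher on 3 of 3 arrays. It was the 1 gene of 6 with all IL-1β arrays above all controls, against 3.15% of all probes, and 0 of 6 had all below, against 2.17%. Its second probe differed by 1.76 (q = 0.174). Tprg differed by -0.91 (interval -1.72 to -0.09, q = 1.00) and Abcc3 by 0.87 (interval -0.02 to 1.75).

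The intervals were wide for the genes that varied most between arrays. They use a spread pooled over all groups, and for Pip and Gdpd2 the undetected TNFα and TGFβ1 arrays varied less than the IL-1β arrays. The difference with IL-1β was -1.09 for Pip (interval -2.82 to 0.64), -0.99 for Gdpd2 (interval -2.91 to 0.92) and -0.59 for Scara5 (interval -1.58 to 0.39). Without IL-1β 5, which was the lowest IL-1β array for both genes, the difference was -0.06 for Pip and -0.04 for Gdpd2, and without control 6 it was -0.23 for Gdpd2. For Scara5 it was -0.26 without IL-1β 5.

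With IL-6, 0 of the 6 genes were called lower, against 0% of all probes, and 0 higher, against 0.058%. None had an unadjusted p under 0.05, of 934 probes that did. All IL-6 arrays lay above all controls in 1 of 6 genes (Abcc3), against 2.57% of all probes, and below in 0 of 6, against 2.47%. The differences from control were 1.45 for Pip (interval -0.28 to 3.18), 1.20 for Gdpd2 (interval -0.71 to 3.11), 0.88 for Abcc3 (interval -0.001 to 1.76), 0.23 for Tprg (interval -0.59 to 1.04), -0.37 for Scara5 (interval -1.36 to 0.61) and -0.59 for Cbr2 (interval -1.45 to 0.26). The contrasts with IL-1β and IL-6 share their controls with each other and with the TNFα and TGFβ1 contrasts.

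Set against each other, IL-6 and IL-1β differed in Cbr2. It was 5.24-fold lower with IL-6 (log2 difference -2.39, interval -3.24 to -1.53, q = 0.0213), below every IL-1β array on 3 of 3 arrays, and the second probe differed by -2.31 (q = 0.0342). This was 1 of 6 genes called lower, against 0.252% of all probes, and the 1 with all IL-6 arrays below all IL-1β arrays, against 4.02%. In 1 gene (Tprg) all were above, against 3.94%. None of the 6 was called higher with IL-6, against 0.147%, while 3 had an unadjusted p under 0.05, of 1374 probes in either direction. These were Pip (2.54, interval 0.81 to 4.27, q = 0.428), Tprg (1.13, interval 0.32 to 1.95, q = 0.523) and Gdpd2 (2.19, interval 0.28 to 4.11, q = 0.846). The spread behind them was pooled over all 15 arrays, with the TNFα and TGFβ1 arrays that did not detect Pip or Gdpd2. For Pip the SD was 1.81 with IL-1β and 1.22 with IL-6, against 0.22 with TNFα and 0.70 with TGFβ1. For Gdpd2 it was 1.75 and 1.38, against 0.40 and 0.46. The pooled spread of both is thus below that of the groups compared, and nothing is read from their unadjusted p. Abcc3 differed by 0.01 (interval -0.87 to 0.90) and Scara5 by 0.22 (interval -0.77 to 1.21). The call for Cbr2 was lost without IL-1β 10 (q = 0.0775), IL-1β 15 (q = 0.069), IL-6 3 (q = 0.0952) or IL-6 13 (q = 0.095), with no filter on dim probes (q = 0.0556) and in a fit of these 2 groups alone (q = 0.256).

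The label numbers form 3 runs of 5 arrays, and all 5 groups have 1 array in each run. In the control, IL-1β and IL-6 groups, the array of the first run (1, 5 and 3) was the lowest of its group for all 6 genes, as for 10.1% of the 26037 probes detected on these 9 arrays. The labels do not say what a run is. Within the runs, IL-6 minus IL-1β was 3.32, 2.40 and 1.89 (log2) for Pip, 1.52, 0.95 and 0.93 for Tprg, 2.85, 2.15 and 1.58 for Gdpd2, and -1.99, -2.78 and -2.40 for Cbr2. Each of these 4 genes kept its direction in all 3 runs. The share of all probes that did so was not computed, so nothing is read from this. The arrays were on 2 slides, and Cbr2 kept its direction on both, with IL-1β minus control at 1.92 and 1.54. Slide 2 held 1 control, 1 IL-1β and 1 IL-6 array, so each second value is 1 array minus 1 array. Its control was from another run than its IL-1β and IL-6 arrays. IL-6 minus control changed sign between the slides for Gdpd2 (2.08 and -0.55) and Tprg (0.46 and -0.24), as did IL-6 minus IL-1β for Abcc3 (0.22 and -0.39). Within the runs, IL-6 minus control was 1.09, 1.16 and 1.34 for Gdpd2, 0.22, 0.42 and 0.04 for Tprg, and 1.04, 2.12 and 1.19 for Pip. IL-1β minus control was 1.51, 2.40 and 1.48 for Cbr2 and -2.28, -0.28 and -0.70 for Pip. In both contrasts with control, each of the 6 genes had the same sign in all 3 runs. The share of all probes that kept their sign was not computed here either, so this count is a description.

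**Figure D3:**
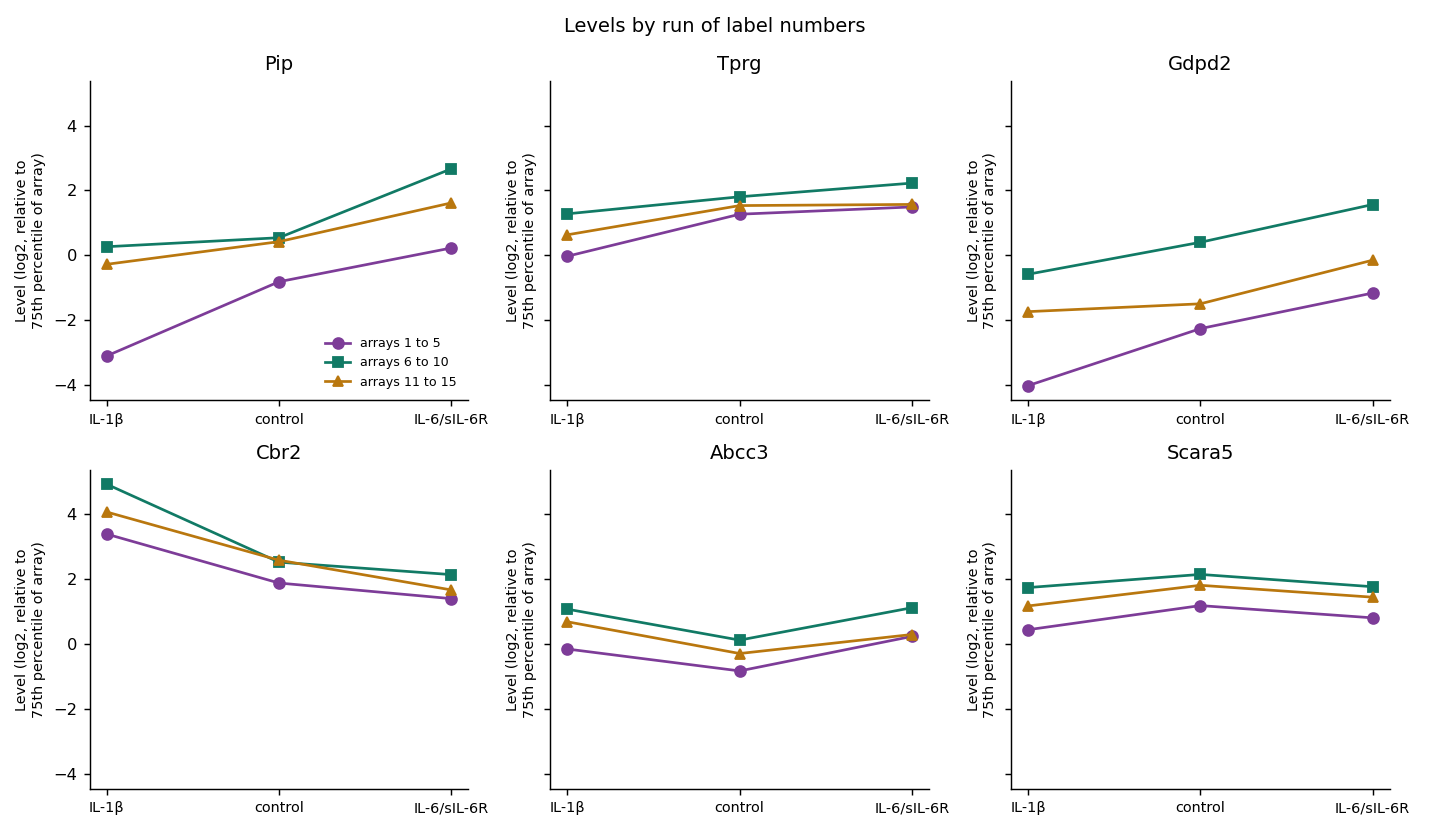
Level of each gene (log2, relative to the 75th percentile of the array) with IL-1β, in controls and with IL-6, with a line for each run of label numbers (1 to 5, 6 to 10 and 11 to 15). The line of arrays 1 to 5 is the lowest for all 6 genes, and within each run Pip, Tprg and Gdpd2 are higher, and Cbr2 lower, with IL-6 than with IL-1β.

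With slide and run both in the model, 3 of the 6 genes were called higher with IL-6 than with IL-1β: Pip (q = 0.0259), Tprg (q = 0.0247) and Gdpd2 (q = 0.0489). The fit takes the run and slide terms as equal in all 5 groups. A run difference cannot show on arrays that do not detect a gene. This holds for Pip and Gdpd2 on the TNFα and TGFβ1 arrays and for Abcc3 on the TGFβ1 arrays, so these q-values are a description. In that fit Cbr2 was called higher with IL-1β than in controls (q = 0.00123), as was Abcc3 (0.87, q = 0.0131), and Abcc3 was called higher with IL-6 (0.88, q = 0.0189). That fit also called more of the 29334 probes: 220 higher with IL-6 than IL-1β, against 43 without these terms. Against control it called 250 higher with IL-1β, against 67, and 162 higher with IL-6, against 17. Arrays of a run deviated together once the slide was removed (r above 0.1 in 30 of 30 pairs of the same run, 0.114 to 0.671). Of pairs from different runs, 2 of 60 were then above 0.1. Without that step r was above 0.1 in 12 of 30 pairs of the same run (-0.602 to 0.826) and in 28 of 60 pairs of different runs.

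Across all 15 arrays, Pearson's r between the 6 genes ranged from 0.524 (Cbr2 with Scara5) to 0.984 (Pip with Gdpd2), and Abcc3 with Scara5 gave 0.931. The points share 5 groups and 3 runs, so r is a description. The genes were chosen for falls on the TNFα or TGFβ1 arrays, which by itself raises r among them. Pip and Gdpd2 were not detected on any of those arrays. The named genes whose pattern was most like each were Pdk1 for Pip (r = 0.982), Tle6 for Tprg (0.984), Rtl8c for Gdpd2 (0.984), Ndrg4 for Cbr2 (0.941), Tgfbr3 for Abcc3 (0.987) and Glt8d2 for Scara5 (0.991). The next 2 were Tle2 and Flot1 for Pip, Zfp503 and Pxmp4 for Tprg, Rtl8b and Mmp19 for Gdpd2, Klc4 and Map1a for Cbr2, Ptgfr and Steap3 for Abcc3, and Tcf19 and Ugt1a6b for Scara5. Several differed less from control than the gene they resembled: Pdk1 differed from control by -1.30 with TNFα and Rtl8c by -0.66, while Glt8d2 differed by -4.59 with TGFβ1.

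Relatives of each gene were taken from lists of the same family or function. Of 11 carbonyl reductases and related dehydrogenases besides Cbr2, 2 were called lower and 0 higher with TNFα (median -0.29, against 0.04 over all probes), and 3 lower and 1 higher with TGFβ1 (median -0.52, against 0.07). Of all probes, 5.96% were called lower and 4.09% higher with TNFα, and 10.4% lower and 7.51% higher with TGFβ1. Genes of these lists that are named for a call with TNFα or TGFβ1, other than paralogs, were chosen after their values were seen. Dhrs3, a retinal reductase, fell by 4.68 with TNFα and 2.25 with TGFβ1, and Hsd11b1, which regenerates active glucocorticoid, was detected on no TNFα array and was at least 3.42-fold lower there. Dcxr, which is the next protein-coding gene to Cbr2 on chromosome 11 (GRCm38.p6) and encodes another carbonyl reductase, fell by 1.24 with TGFβ1. Like Cbr2 it was called lower with IL-6 than with IL-1β (-1.23, q = 0.033), the 1 such call among the 11, against 0.252% of all probes. The alternatives under which the Cbr2 call was lost were not examined for Dcxr. Of the neighbours of the 6 genes, values are given only for Dcxr and Trp63, so nothing is read from their position.

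Of 4 tested ABCC transporters besides Abcc3, Abcc4 rose with both TNFα (0.87) and TGFβ1 (0.72), and Abcc10 fell by 0.59 with TGFβ1. Of 4 tested phosphodiesterases besides Gdpd2, Gdpd1 rose with TNFα (1.95) and TGFβ1 (1.95) and Gdpd5 with TNFα (2.14, with 2 of 3 controls detected), opposite in sign to Gdpd2, while Gpcpd1 fell by 0.66 with TGFβ1. Colec12, the other class A scavenger receptor tested beside Scara5, differed by -0.07 with TNFα and -0.19 with TGFβ1 and was not called. Of 12 iron-handling genes, 1 was called lower and 2 higher with TNFα, and 2 lower and 2 higher with TGFβ1. Slc40a1 differed by -2.25 with TNFα and -1.44 with TGFβ1 and was not called. Ceruloplasmin (Cp), a copper ferroxidase, rose with TNFα (2.14) and fell by 1.88 with TGFβ1, and the ferrireductase Steap3 fell by 0.67 and 1.36. Among 6 tested prolactin-pathway and Pip partner genes, 0 were called with TNFα and 2 with TGFβ1, where fibronectin (Fn1) rose (0.81) and the STAT target Cish fell by 1.05. With IL-1β or IL-6 against control, none of the tested genes in these lists was called.

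Tprg lies next to Trp63, which encodes p63, on chromosome 16 (GRCm38.p6). The 2 Trp63 probes disagreed. Probe A_51_P216550 was detected on all control, IL-1β and IL-6 arrays and on no TNFα or TGFβ1 array, and was at least 19.1-fold lower with TNFα and at least 18.9-fold lower with TGFβ1 (measured differences -5.98 and -4.69). Probe A_55_P2161055, to another Trp63 transcript, was detected on all 15 arrays and differed by 0.30 (q = 0.445) and 0.47 (q = 0.158). Of the p63-network genes tested besides Tprg, 1 was called lower with TNFα, P-cadherin (Cdh3, by 1.62), and 0 were called lower with TGFβ1, with Trp63 taken by its brighter probe.

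**Figure D4:**
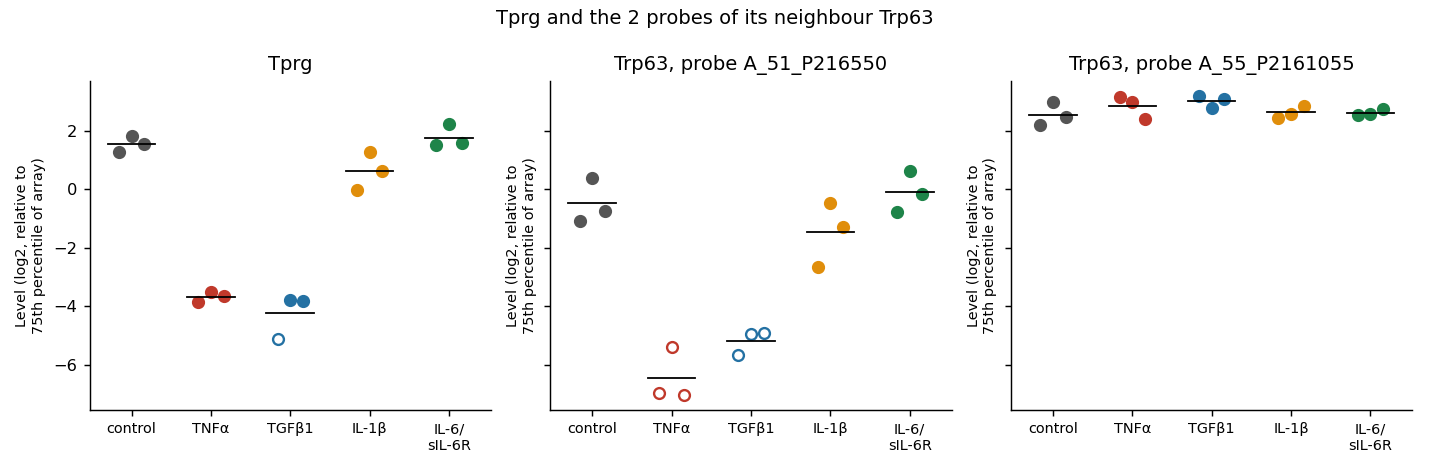
Levels (log2, relative to the 75th percentile of the array) of Tprg and of the 2 probes of its neighbour Trp63 on the 15 arrays, with open circles where the probe was not well above background and lines for the means of 3. Tprg and probe A_51_P216550 are lower on all TNFα and TGFβ1 arrays than in controls, and probe A_55_P2161055 is not; levels of different probes are not comparable.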

How the data were processed

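RNA of 15 MEF cultures in 5 groups of 3 was labelled with Cyanine 3 and hybridized to Agilent arrays of 62976 spots (59305 non-control). The deposited files hold spot intensities that the authors extracted with Agilent Feature Extraction 10.7.3.1 (version per the submitters' processing notes), background-subtracted and without normalization between arrays. The deposited table of the whole series held the same values (largest difference 0). From these deposited intensities, log2 values were computed here, minus each array's 75th percentile. Spots flagged as outliers were left out, and a probe counted as detected where at least 0.5 of its spots were well above background. A probe was tested where it was detected on every array of at least 1 group (29334 probes). One limma 3.58.1 model (R 4.3.3) over all 15 arrays gave differences, standard errors and Benjamini-Hochberg q-values, and was tested on simulated data. Genes were named by matching RefSeq accessions to GRCm38.p6 (33767 of 56605 probes), and the brightest probe stood for a gene.

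The members and lists were chosen with earlier results of these data known. Genes outside the 6 were named as the 3 most like each in pattern, as list members called in a comparison, or as a neighbour (these last chosen after their values were seen). Groups came from the labels. A figure legend of the paper gives 3 independent experiments, and the labels do not say which arrays share one. The number of arrays limits the precision. Alternatives were normexp (offset 50, on median signal since the files hold no mean), quantile and median scaling, other filters, slide and run as blocks, fits of 2 groups and leaving out each array. Figures used Python and matplotlib. The genes of the p63-network list that rose are not reported here.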

Additional observations from a re-analysis of the deposited data

Results flagged for a closer look

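Cbr2 was flagged because IL-6 and IL-1β differed from each other in a test of that difference (log2 difference -2.39, IL-6 minus IL-1β). It was flagged as well because every IL-1β array lay above every control (1.80) while every TNFα array (-3.81) and every TGFβ1 array (-2.37) lay below; the difference between these effects was not tested.

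Abcc3 was flagged because every IL-6 array lay above every control (0.88) while every TNFα array (-2.45) and every TGFβ1 array (-5.68) lay below. This difference between effects was not tested either, and the 6 genes are members for their falls with TNFα or TGFβ1.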

How the results depend on the processing

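All 6 genes stayed lower than control with TNFα and with TGFβ1, on every array, under all alternatives run. Only those that change the values could alter this: normexp, quantile and median scaling, and the median over a gene's probes. Filters, model terms, fits of 2 groups and leaving out arrays could not. The genes were also chosen on these contrasts, so nothing is read from it. Slide and run of label numbers together gave 2 genes called higher with IL-1β, 1 higher with IL-6 and 3 higher with IL-6 than IL-1β. Run alone, added after seeing the data, gave 2, 1 and 2. Both fits also called more of all probes in these contrasts, with the counts given below. They include the TNFα and TGFβ1 arrays that did not detect Pip or Gdpd2, where a run difference cannot show. No filter on dim probes, or only the 2 groups compared, gave 0 genes called lower with IL-6 than IL-1β, and leaving out arrays gave 0 to 1. Without IL-1β 5, IL-6 minus IL-1β turned to -0.33 in Abcc3 (-0.33 to 0.28 over the arrays left out) and -0.12 in Scara5 (-0.12 to 0.53). Without IL-6 8 it was -0.27 in Abcc3, and IL-6 minus control was -0.0051 in Tprg (-0.0051 to 0.36). None of these differences was called with all arrays in the fit. The cause was not tested.

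Counts of probes called moved more. For TNFα (1749 lower, 1199 higher) median scaling gave 689 higher, so 29.6% of calls were higher against 40.7%, slide and run gave 2252 higher, and leaving out arrays gave 1043 to 1698 lower. For TGFβ1 (3048 lower, 2202 higher) normexp gave 1779 lower and median scaling 1418 higher. For IL-1β (1 lower, 67 higher) the lower calls were 4 with normexp, 2 with median scaling, 6 with no filter, 2 with the stricter filter, 8 with slide, 73 with slide and run, 24 with run and 0 in the fit of 2 groups, and the higher calls were 250, 133 and 20 in the last 3 fits; leaving out arrays gave 0 to 2 lower and 39 to 53 higher. For IL-6 (0 lower, 17 higher) the lower calls were 1 with quantile scaling, 5 with slide, 69 with slide and run and 10 with run. Its higher calls were 8 with median scaling, 9 with no filter, 32 with slide, 162 with slide and run, 51 with run and 0 in the fit of 2 groups, and leaving out arrays gave 0 to 1 lower and 4 to 17 higher. For IL-6 against IL-1β (74 lower, 43 higher) median scaling gave 40 and 26, no filter 39 and 21, slide 119 and 77, slide and run 299 and 220, run 178 and 127, and the fit of 2 groups 6 and 0; leaving out arrays gave 33 to 54 lower and 15 to 28 higher. Signal near background limits the falls of Pip, Gdpd2, Tprg, Abcc3 and Scara5. The groups share no replicate number in the labels, and the fits with the run of label numbers are the only ones that pair arrays.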
